A study of Mus musculus with 10 samples.

Results

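Lgals3bp and 4 galectin genes, Lgals1, Lgals3, Lgals8 and Lgals9, were followed in mouse acute lymphoblastic leukaemia recovered from transplanted animals. They are 5 of the 18193 genes named on the array. All probe sets whose platform symbol is 1 of the 5 were taken, which gave 7 of the 45037 that are not controls. Lgals3bp and Lgals3 had 1 probe set each, Lgals9 had 1, and Lgals1 and Lgals8 had 2 each. Lgals3bp was chosen by its log2 difference between the allogeneic and syngeneic samples of these data, which was already known, and the galectins were taken with it by name. The differences between groups given for these 7 probe sets are therefore a description and carry no test.

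The 10 samples were GFP-sorted leukaemia from marrow, 1 array per animal. In the 5 allogeneic samples the leukaemia, named NSTY in the labels, grew in C57BL/6 recipients infused with C3.SW marrow and spleen cells. In the 5 syngeneic samples the infused marrow and spleen cells were C57BL/6. All recipients had total body irradiation and 5-fluorouracil. All leukaemia was of C57BL/6 background, carried human p210 bcr/abl and a deletion in the Ink4a/Arf locus, and had passed through 3 serial transplants of 2 to 3 weeks each. The labels do not state the ages of the animals, or whether the leukaemia is 1 clone. Nor do they state whether animals of a group received cells from a common earlier recipient. The error terms therefore reach no further than these 10 samples. Each SE is limma's after eBayes, which draws the variance of a probe set towards that of all probe sets. It is larger than a probe set's own values give where their spread is small, and smaller where it is large.

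Galectins are small lectins that bind beta-galactosides on the glycans of cell surface and secreted proteins. They lack a secretion signal, act both inside and outside the cell, and can cross-link glycoproteins into lattices that change signalling, adhesion and the survival of lymphocytes. Lgals3bp encodes a secreted, heavily glycosylated scavenger receptor cysteine-rich protein, also known as 90K or Mac-2 binding protein, which galectins bind. In B-lymphoid development galectin-1 is known as a stromal ligand of the pre-B cell receptor, and galectin-3 is known by its older name Mac-2 as an antigen of macrophages.

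Promoter sequences are shown for Lgals3bp and Lgals9, the 2 members whose allogeneic values all lay above their syngeneic values on the normalized scale. Each is the 250 bases before the start site in RefSeq GRCm38.p6, read on the minus strand. That of Lgals3bp lies at chr11:118401960-118402209 and that of Lgals9 at chr11:78984925-78985174. Capitals mark matches to the core of the interferon-stimulated response element, which is GAAA at both ends with 2 bases of any kind between, or to the shorter core bound by interferon regulatory factors, AANNGAAA, searched on both strands. The longer core always contains the shorter one.
Lgals3bp: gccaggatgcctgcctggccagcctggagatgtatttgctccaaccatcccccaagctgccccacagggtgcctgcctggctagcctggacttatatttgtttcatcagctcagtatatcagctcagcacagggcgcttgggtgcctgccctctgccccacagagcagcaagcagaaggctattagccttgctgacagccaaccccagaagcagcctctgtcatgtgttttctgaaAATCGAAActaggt
Lgals9: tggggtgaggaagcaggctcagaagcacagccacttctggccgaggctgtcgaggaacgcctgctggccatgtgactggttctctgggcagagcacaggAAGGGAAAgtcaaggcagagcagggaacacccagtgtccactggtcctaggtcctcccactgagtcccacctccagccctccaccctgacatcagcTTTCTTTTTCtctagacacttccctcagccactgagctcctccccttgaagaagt

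Lgals3bp held the shorter core once, from position -14 to -7 relative to the start site, and held no match to the longer core in this window. Lgals9 held the longer core once on the opposite strand, from -55 to -46, and a separate match to the shorter core from -151 to -144. The longer core was present in 2.98% of 32851 RefSeq promoter windows of the same 250 bases, and the shorter in 21.3%. Another motif, TTCNNNGAA, the core bound by STAT dimers, was present in 7.02% of windows and in neither of these 2. RefSeq windows of Lgals3 and Lgals8 held no match to any of these motifs, and none was used for Lgals1. The shorter core was searched after the sequences had been seen. A match describes letters in a window, not binding.

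**Figure D1:**
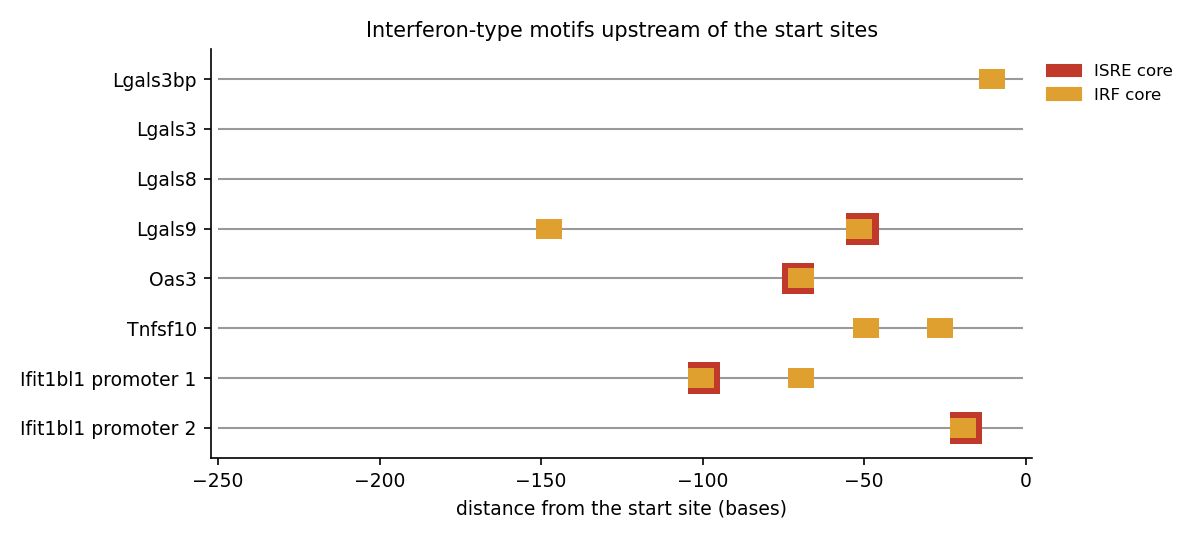
Positions of motif matches in the 250 bases before each start site, in bases from the start site, for the members with a RefSeq window and for those of the 5 genes nearest to Lgals3bp in pattern that have one. The only Lgals3bp match is a shorter core (yellow) from -14 to -7. Lgals9 has a longer core (red) from -55 to -46, and both Ifit1bl1 windows hold a longer core.

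Values below are log2 levels of the deposited intensities after quantile normalization between arrays, unless the deposited scale is named. The limit of background was set for each array at percentile 95 of the signals of 27 bacterial control probe sets, and lay between 4.50 and 5.09 on allogeneic arrays and between 4.70 and 5.32 on syngeneic ones. All 7 member probe sets were above it on all 10 arrays. Median deposited intensity was 53.3 to 72.0 on allogeneic and 60.3 to 64.6 on syngeneic arrays. The lower quartile was 14.0 to 19.5 on allogeneic and 13.8 to 14.4 on syngeneic arrays, with the high values on allogeneic animals 1, 3 and 4. Ratios of 3' to 5' Gapdh controls were 1.38 to 1.59 on allogeneic and 1.46 to 1.56 on syngeneic arrays. The labelled cell type was checked with 13 measured B-lymphoid progenitor markers. Of these, 12 were above the limit on all 10 arrays, among them Vpreb1 (13.68 allogeneic, 13.64 syngeneic) and Igll1 (13.50 allogeneic and 13.49 syngeneic), the surrogate light chains of the pre-B cell receptor. Pax5, a B-lineage transcription factor, was above it on 2 allogeneic and 4 syngeneic arrays.

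Lgals3bp had log2 levels of 9.64, 9.66, 10.28, 9.09 and 10.06 in allogeneic animals 1 to 5, against 6.45, 6.32, 7.06, 6.12 and 6.46 in syngeneic animals 1 to 5. The groups were far apart, and the lowest allogeneic animal, number 4, was well above the highest syngeneic animal, number 3. On the deposited scale the intensities were 542 to 1241 in allogeneic and 70.8 to 131 in syngeneic animals. The mean log2 level was 9.75 ± 0.45 in allogeneic and 6.48 ± 0.35 in syngeneic samples (SD, n = 5 each). The difference was 3.26 on the log2 scale (SE 0.25), or 9.60-fold. All 5 syngeneic values stood above the background limit, the closest being animal 4 at 6.12 against a limit of 5.32. No background was subtracted here, and whether the authors did so is not given. Whether the fold is a lower bound is therefore not settled. In samples of many cells such as these, fewer cells of a type and less RNA per cell cannot be told apart.

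Leaving out any 1 array gave a difference of 3.15 to 3.42 for Lgals3bp. Across the other 10 settings it was 3.05 to 3.42. Of the 7 member probe sets, 1, that of Lgals3bp, passed limma's adjusted p threshold in the higher direction, where 0.271% of all probe sets passed higher, 0.14% lower and 0.411% in either direction. The groups did not overlap for 2 of the 7, Lgals3bp and Lgals9, against 4.74% of all probe sets in either direction and 2.37% with allogeneic samples higher. Since the members were chosen with this contrast known, nothing is read from these counts.

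**Figure D2:**
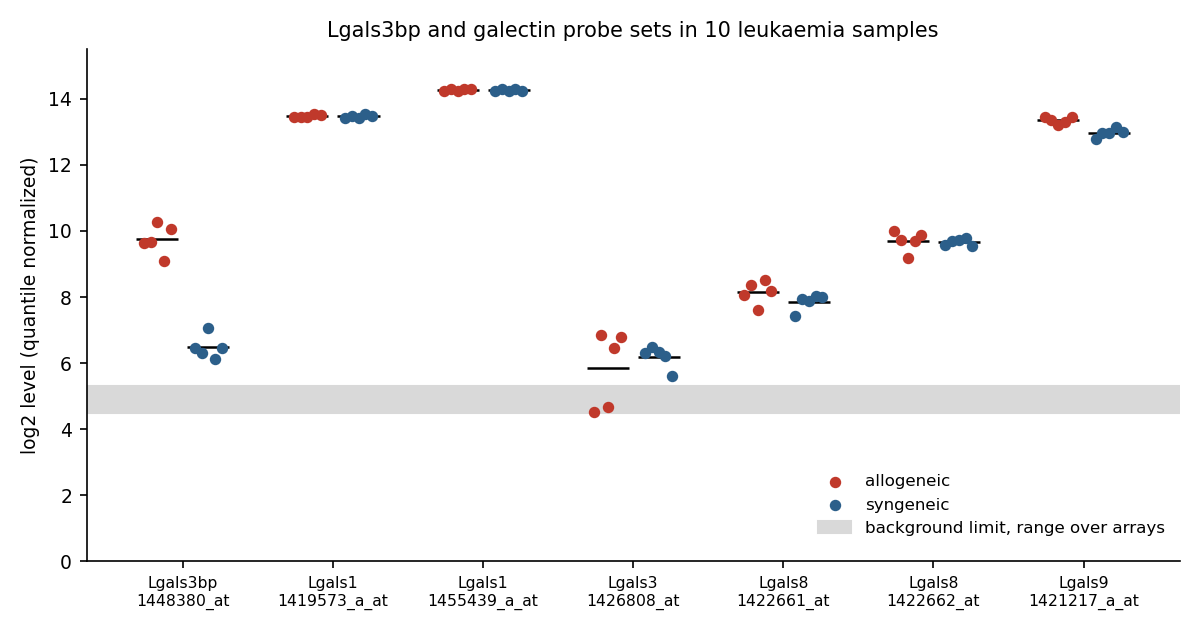
Log2 level of each member probe set in each sample, allogeneic in red on the left and syngeneic in blue on the right of each pair. Bars are group means, n = 5 each, and the grey band is the range of the background limit over arrays. Lgals3bp lies at 9.09 to 10.28 in allogeneic and 6.12 to 7.06 in syngeneic samples, while within each Lgals1 probe set all 10 samples lie close together.

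Lgals9 encodes galectin-9, a tandem-repeat galectin with 2 carbohydrate-binding domains that binds T cell surface glycoproteins. Its log2 levels were 13.44, 13.35, 13.21, 13.31 and 13.46 in allogeneic animals 1 to 5, against 12.79, 12.98, 12.97, 13.14 and 12.996 in syngeneic animals 1 to 5. The lowest allogeneic value, in animal 3, stood just above the highest syngeneic value, in animal 4. The difference was 0.38 (SE 0.12, n = 5 each), or 1.30-fold. On the deposited scale the groups overlapped, at 9161 to 11302 in allogeneic and 7083 to 9481 in syngeneic animals. The difference was 0.31 (SE 0.13) on log2 deposited values and 0.28 (SE 0.18) with each array centred on its median. This probe set was among the brightest on the array, ranking between 281 and 495 from the top of 45037 in allogeneic and between 554 and 958 in syngeneic samples.

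The order of the animals was not shared between Lgals3bp and Lgals9. Allogeneic animal 3 had the highest Lgals3bp and the lowest Lgals9 of its group. Syngeneic animal 4 had the lowest Lgals3bp and the highest Lgals9.

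Lgals1 encodes galectin-1, a dimeric galectin with a single type of carbohydrate-binding domain. One of its probe sets gave the highest deposited intensity of all 45037 probe sets on each of the 10 arrays. That intensity was 18718, 19882, 19343, 19637 and 20129 in allogeneic animals 1 to 5, against 19000, 20111, 19497, 20356 and 19861 in syngeneic animals 1 to 5. The groups overlapped over almost their whole range. A signal's place on the array does not rank transcripts, and at this end of the scale quantile normalization keeps little more than the rank. Whether a signal this high still follows the amount of transcript was not tested. Closeness of the groups here therefore does not show that Lgals1 was unchanged. The other probe set had deposited intensities of 10573 to 11844 in allogeneic and 11044 to 12331 in syngeneic animals.

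These 2 probe sets of Lgals1 gave differences of 0.015 (SE 0.10) and 0.014 (SE 0.10) on the normalized log2 scale. On log2 deposited values they were -0.016 (SE 0.10) and -0.057 (SE 0.11), so the sign turned with the scaling while the size stayed within 1 SE of 0. The normalized SEs were raised by eBayes, as the residual SDs were only 0.036 and 0.044. With trend and robust eBayes these SEs were 0.036 and 0.045.

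Lgals8 encodes galectin-8, a second tandem-repeat galectin, which recognises glycans exposed on damaged endosomes and lysosomes. Its probe set of higher mean signal had log2 levels of 10.002, 9.71, 9.17, 9.71 and 9.86 in allogeneic animals 1 to 5, against 9.58, 9.71, 9.74, 9.78 and 9.56 in syngeneic animals 1 to 5. The difference was 0.019 (SE 0.17), and the allogeneic values spread over a wider range on both sides of the syngeneic ones. The other probe set had 8.05, 8.35, 7.61, 8.52 and 8.18 in allogeneic animals, against 7.43, 7.93, 7.88, 8.03 and 7.997 in syngeneic animals, a difference of 0.29 (SE 0.20). Both probe sets were lowest in allogeneic animal 3 within that group, and both sets of values overlapped between groups. The probe sets disagreed on the size of the difference, and that of higher mean signal turned to -0.018 (SE 0.20) when arrays were centred on their median.

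Lgals3 encodes galectin-3, the chimera-type galectin with a single carbohydrate-binding domain and a long flexible tail. Its log2 levels were 4.52, 6.86, 4.67, 6.45 and 6.79 in allogeneic animals 1 to 5, against 6.31, 6.48, 6.33, 6.21 and 5.62 in syngeneic animals 1 to 5. Allogeneic animals 1 and 3 were barely above their background limits of 4.50 and 4.53, while allogeneic animals 2 and 5 were above all syngeneic animals. The SD was 1.16 in allogeneic and 0.33 in syngeneic samples. The difference of -0.33 (SE 0.49) became 0.0014 (SE 0.44) without allogeneic animal 1, -0.037 (SE 0.47) without allogeneic animal 3, and -0.59 (SE 0.49) and -0.57 (SE 0.50) without allogeneic animals 2 and 5. Without the 3 allogeneic arrays of high lower quartile, 1, 3 and 4, it was 0.65 (SE 0.25), so its direction rested on which allogeneic arrays were used.

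Because galectin-3 is an antigen of macrophages, 13 measured macrophage and monocyte markers were set beside it. Lyz2, the lysozyme of myeloid cells, had 5.23, 9.46, 8.76, 9.24 and 8.99 in allogeneic animals 1 to 5, against 7.74 to 8.24 in syngeneic animals, so that animal 3 was still above all syngeneic animals. C1qb, a complement component made by macrophages, had 2.73, 9.04, 7.14, 8.09 and 7.89 in allogeneic animals, against 6.60 to 7.58 in syngeneic animals. Csf1r, the receptor of macrophage colony-stimulating factor, had 5.49, 6.07, 5.08, 5.90 and 6.01 in allogeneic animals, against 5.68 to 5.96 in syngeneic animals. Allogeneic animals 1 and 3, lowest for Lgals3, were also the 2 lowest of their group for these 3 genes, which were named after their values were seen. The same held for C1qa, C1qc, Cd68, Fcgr1 and Fcgr3. The share of all genes with these arrays as the 2 lowest was not counted, so nothing is read from this order. Other markers of the list differed. Mpeg1 (13.14) and Cybb (12.43) were highest of the allogeneic group in animal 1. Adgre1 (6.30) and Ccr2 (7.39) were highest in animal 3, but stood at 3.87 and 4.98 in animal 1. Cd14 was lowest in animal 5. The median of the list relative to the syngeneic mean was -0.32, 0.54, -0.013, 0.47 and 0.56 in allogeneic animals 1 to 5. In syngeneic animals it was -0.096 to 0.14. Over the whole list the lowest allogeneic array was animal 1 for 6 and animal 3 for 3 of the 13 markers, while over all 18193 genes it was animal 1 for 29% and animal 3 for 21.6%.

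The summed level of the 13 markers was 16781 to 19736 in allogeneic and 13389 to 16161 in syngeneic animals, and was highest in allogeneic animal 1. Bright Mpeg1 (12.63 allogeneic and 11.95 syngeneic), Fcgr3 (12.46 allogeneic and 12.25 syngeneic) and Cybb (12.16 allogeneic and 12.19 syngeneic) carried most of that sum. Cd14 was not above the background limit on any array, and Adgre1, the F4/80 antigen, was above it on 3 allogeneic and 0 syngeneic arrays. The part of these markers in the Lgals3 values was not tested. Lgals3bp stood at 9.64 and 10.28 in allogeneic animals 1 and 3, the fourth and the highest of their group.

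**Figure D3:**
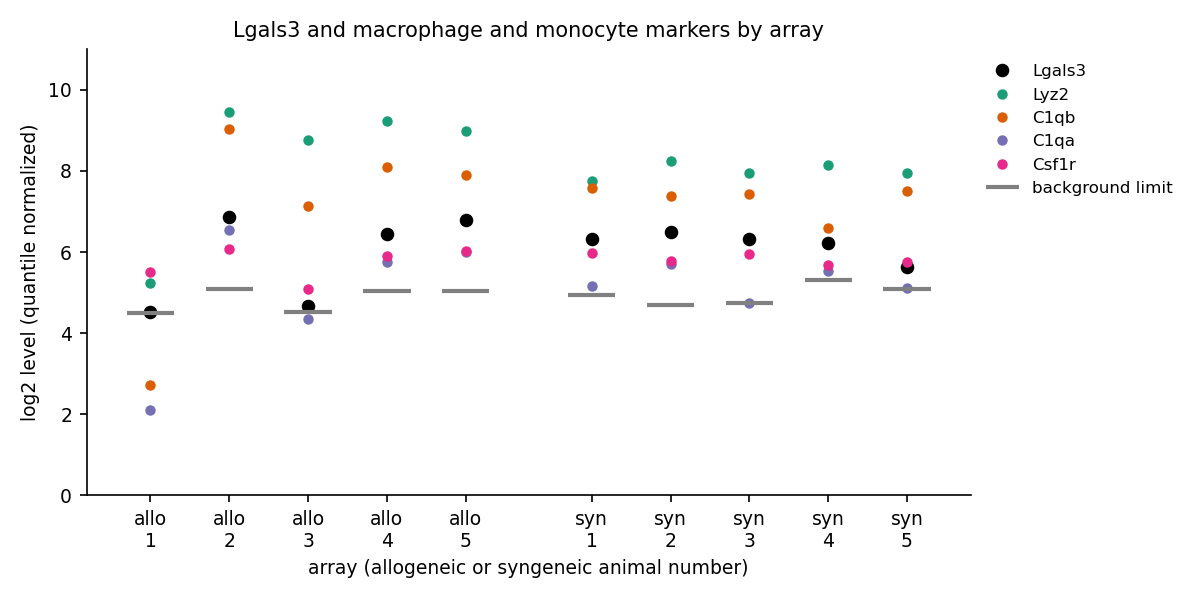
Log2 levels of Lgals3 (black) and of the myeloid genes Lyz2, C1qb, C1qa and Csf1r on each array, with the background limit of that array as a grey bar. These myeloid genes were picked after their values were seen. Other markers of the list, not shown, differed. Mpeg1 and Cybb were highest of the allogeneic group in animal 1, Adgre1 and Ccr2 were highest in animal 3, and Cd14 was lowest in animal 5. Lgals3 stands at 4.52 and 4.67 in allogeneic animals 1 and 3, and at 5.62 to 6.86 in the other 8 samples.

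The genes whose pattern was nearest to that of Lgals3bp were found by the root mean square difference between log2 levels over the 10 arrays, after each gene was centred on its own mean. With 1 probe set per gene, the 5 nearest of 18188 other genes were Rtp4 (0.47), Oas3 (0.53), Zbp1 (0.54), Tnfsf10 (0.55) and Ifit1bl1 (0.58). The median over all other genes was 1.71, and the sixth nearest, Prodh, stood at 0.64. Rtp4 encodes a receptor transporter protein, Oas3 an oligoadenylate synthetase that senses double-stranded RNA, Zbp1 a cytosolic sensor of Z-DNA and Z-RNA, and Tnfsf10 the death ligand TRAIL. Since likeness was measured on the same 10 arrays, the differences of these genes between groups follow from the choice and carry no test.

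Among the 5 nearest genes, Tnfsf10 differed by 2.56 (SE 0.23) and Oas3 by 3.35 (SE 0.36), which brackets the 3.26 of Lgals3bp. Oas3 was above the background limit on 5 allogeneic arrays and 1 syngeneic array, while the leading probe sets of the other 4 were above it on all 10. Tnfsf10 had 9.49, 9.16, 9.50, 8.92 and 8.39 in allogeneic animals 1 to 5, against 6.46, 6.64, 6.94, 6.35 and 6.27 in syngeneic animals 1 to 5, and its groups did not overlap. Of its 3 probe sets, another differed by 2.20 (SE 0.31) and the last by only 0.58 (SE 0.35). The other probe set of Rtp4 differed by 1.82 (SE 0.39) and its groups overlapped, and that of Zbp1 differed by 2.79 (SE 0.30). The RefSeq windows of Oas3, Tnfsf10 and Ifit1bl1 each held the shorter interferon core, and those of Oas3 and Ifit1bl1 also held the longer one. Windows of Rtp4 and Zbp1 were not used here.

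Syngeneic animal 3 was the highest of its group for Lgals3bp, at 7.06 against 6.12 to 6.46 in the other 4. All 5 nearest genes were also highest in that animal, which likeness over the same arrays favours. Of 22 measured genes of the interferon response, 10 were highest in syngeneic animal 3, compared with 18.6% of all genes. The median of that list relative to the syngeneic mean was 0.21 in syngeneic animal 3 and between -0.33 and 0.061 in the other 4.

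**Figure D4:**
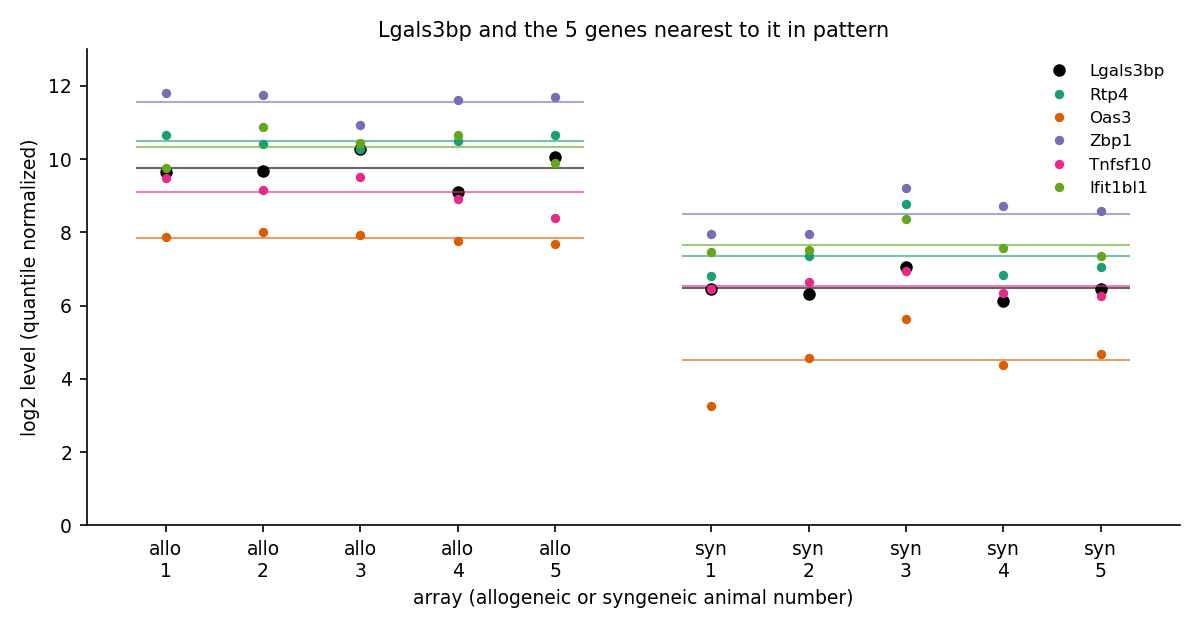
Log2 levels of Lgals3bp (black) and of the 5 genes nearest to it in pattern, by array, with lines at group means (n = 5 each). By the leading probe sets shown, all 6 genes are higher in every allogeneic than in every syngeneic sample, and all 6 are highest among syngeneic samples in animal 3.

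Other genes of galectin biology were tested in the same limma fit, each by its probe set of highest mean, with p-values adjusted over all 45037 probe sets. By this rule 0.423% of all 18193 genes passed, 0.368% higher and 0.055% lower in allogeneic samples, and the median difference of all genes was 0.011. Of 84 measured genes in 5 galectin-related lists, 0 passed by limma's adjusted p. At an unadjusted p under 0.05 there were 9 of the 84 (10.7%), compared with 15.4% of all genes.

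Of 5 other galectins measured 0 passed, and their median difference was -0.21. Lgals4, a galectin of gut epithelium, was above the background limit on all 10 arrays and had means of 7.36 in allogeneic and 7.56 in syngeneic samples. Lgals2 had means of 4.93 in allogeneic and 5.14 in syngeneic samples, Lgals7 3.99 in allogeneic and 4.39 in syngeneic samples, Lgals12 4.26 in allogeneic and 4.35 in syngeneic samples, and the galectin-like gene Lgalsl 3.79 in allogeneic and 4.44 in syngeneic samples. These 4 were above the limit on some arrays only, so low levels limit what their differences can show.

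Relatives of Lgals3bp with scavenger receptor cysteine-rich domains gave 0 passing genes of 12 measured, with a median of -0.22 and a range of -1.28 to 1.33. Ssc5d, the brightest of the list, had means of 8.04 in allogeneic and 8.35 in syngeneic samples. Loxl3, a lysyl oxidase, had the smallest p in these lists, with means of 4.18 in allogeneic and 5.46 in syngeneic samples (difference -1.28, SE 0.26, adjusted p = 0.0715 by limma). It was above background on 1 allogeneic and 5 syngeneic arrays. Among the fits with 1 array left out, it passed only without allogeneic animal 1 (adjusted p = 0.0430) and without allogeneic animal 2 (adjusted p = 0.00568). Cd163, a macrophage scavenger receptor, had means of 4.52 in allogeneic and 3.19 in syngeneic samples and was above the limit on 2 allogeneic arrays.

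Among 19 binding partners of galectins 0 passed, and the median difference was 0.040. Nrp1, which encodes the semaphorin and VEGF co-receptor neuropilin-1, had the smallest p of this list, with means of 4.76 in allogeneic and 3.96 in syngeneic samples (difference 0.80, SE 0.24, adjusted p = 0.157 by limma). It was above the background limit on 2 allogeneic and 0 syngeneic arrays. Ptprc, which encodes the leukocyte phosphatase CD45, had means of 12.05 in allogeneic and 12.24 in syngeneic samples. Spn, the sialomucin CD43, had 11.01 in allogeneic and 10.68 in syngeneic samples, and Cd44, the hyaluronan receptor, had 11.39 in allogeneic and 11.07 in syngeneic samples. Lamp1 and Lamp2, heavily glycosylated lysosomal membrane proteins, had 12.51 and 12.42 in allogeneic and 12.40 and 12.39 in syngeneic samples. Itga4, an integrin chain of lymphocyte adhesion, had 12.45 in allogeneic and 12.95 in syngeneic samples (difference -0.50, SE 0.18, adjusted p = 0.203 by limma). Among the fits with 1 array left out, it passed only without allogeneic animal 1, with a difference of -0.64 (adjusted p = 0.0309). P4hb, a disulfide isomerase, had means of 13.08 in both groups, and the integrin genes Itgb1 and Itga5 differed by 0.20 (SE 0.13) and -0.43 (SE 0.21). Differences were 0.35 (SE 0.26) for the receptor kinase gene Mertk, 0.067 (SE 0.45) for the adhesion gene Alcam and 0.36 (SE 0.39) for Pdpn, which was above the limit on 2 allogeneic arrays only. Probe sets with a difference of opposite sign to the one used were 2 of 4 for Itga5 and 1 of 4 for Nrp1. They were 1 of 5 for Itga4 and 1 of 5 for Alcam. Havcr2, the galectin-9 receptor TIM-3, Lag3, Cd7 and Itgam were not above background on any array.

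Glycan branching and capping enzymes make or mask the galactose-bearing glycans that galectins bind. Of 26 measured genes 0 passed, and the median difference was -0.022. B4galt1, a galactosyltransferase, had means of 12.44 in allogeneic and 12.45 in syngeneic samples, Mgat5, which adds an N-glycan branch, had 10.26 in allogeneic and 10.34 in syngeneic samples, and St6gal1, a sialyltransferase that caps galactose, had 11.18 in allogeneic and 11.26 in syngeneic samples. Differences in the list ran from -1.33 for the sialyltransferase St3gal4 (SE 0.37, adjusted p = 0.139 by limma) to 0.48 for St3gal1 (SE 0.40). St3gal4 was above the background limit on 2 allogeneic and 5 syngeneic arrays, so its difference is taken against values mostly at background.

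In the response to damaged lysosomes, in which galectin-8 and galectin-3 mark the broken membrane for autophagy, 0 of 22 measured genes passed, with a median of -0.013. Lamtor1, a lysosomal anchor of growth signalling and the brightest of the list, had means of 12.75 in allogeneic and 12.71 in syngeneic samples. Calcoco1, a relative of the galectin-8 adaptor known in human cells, had means of 8.54 in allogeneic and 8.13 in syngeneic samples. The kinase gene Tbk1 had 10.54 in allogeneic and 10.81 in syngeneic samples, and the adaptor gene Sqstm1 had 10.79 in allogeneic and 10.46 in syngeneic samples. Trim16, a ubiquitin ligase that binds galectin-3, had 4.47 in allogeneic and 5.40 in syngeneic samples (difference -0.92, SE 0.32, adjusted p = 0.198 by limma). It was above the background limit on 1 allogeneic and 5 syngeneic arrays, so this difference too is taken against values mostly at background.

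The interferon response genes were set beside Lgals3bp, with their rise already known. Of 22 measured genes 10 rose, 0 fell and 12 did not pass, with a median difference of 1.24. Iigp1, an immunity-related GTPase, and Gbp2, a guanylate-binding protein, had the smallest p-values, with differences of 7.56 (SE 0.41) and 2.14 (SE 0.17) and limma adjusted p-values of 0.000202 and 0.000628. Iigp1 was above the background limit on 5 allogeneic arrays and 1 syngeneic array. Zbp1 rose by 3.06, Igtp, another immunity-related GTPase, by 2.00, the transcription factor gene Irf1 by 1.71 and the immunoproteasome subunit gene Psmb9 by 1.16. Psmb8, a further immunoproteasome subunit and the brightest of the list, had means of 12.38 in allogeneic and 12.11 in syngeneic samples and did not pass. Of the list, 7 to 10 genes passed when any 1 array was left out.

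**Figure D5:**
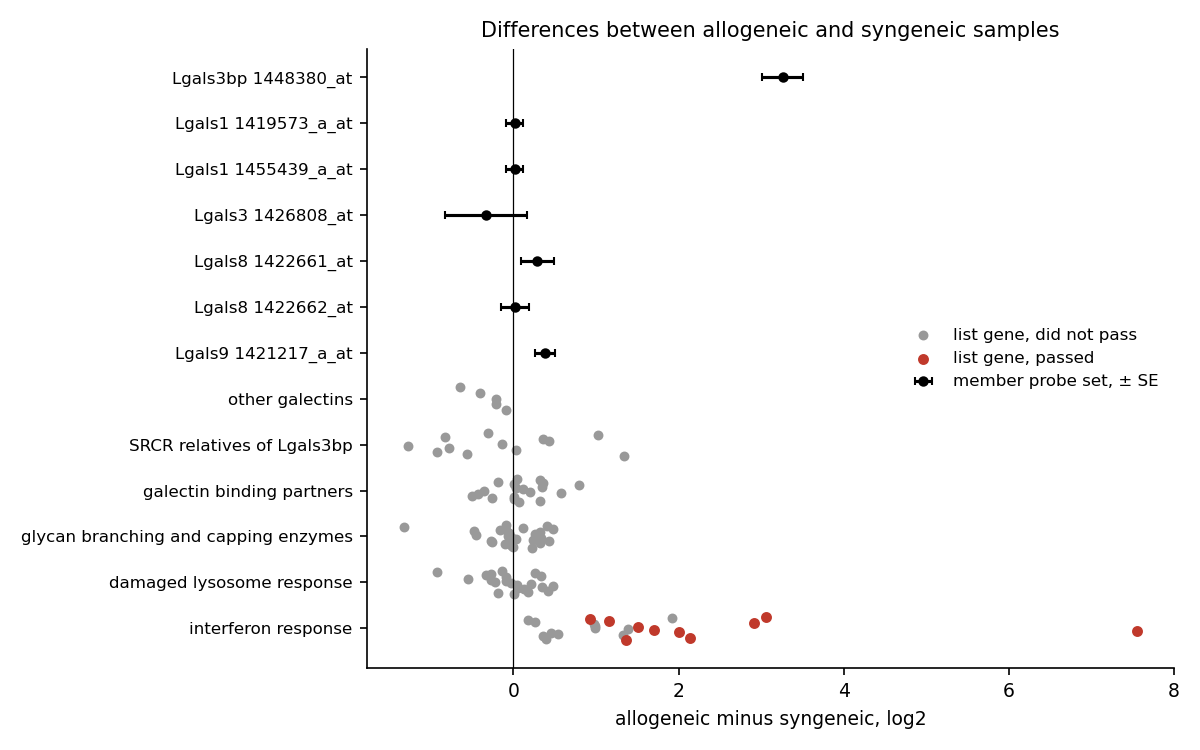
Difference between allogeneic and syngeneic samples on the log2 scale, for each member probe set (black, with SE, n = 5 per group) and for each measured gene of 6 lists. Red points passed the test over all probe sets and grey points did not. Lgals3bp stands at 3.26, the galectins between -0.33 and 0.38, and all 10 red points are interferon response genes.

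The 10 cell type lists, macrophage and B-lymphoid progenitor included, gave 0 passing genes among 88 measured markers by limma. At an unadjusted p under 0.05 there were 14 of the 88 (15.9%), compared with 15.4% of all genes. The share differed between lists, from 0 of 9 T cell markers to 4 of 8 dendritic cell markers. Those 4 were Zbtb46, Batf3 and Cd209a, higher in allogeneic samples, and Clec10a, lower. Batf3 and Cd209a were not above the background limit on any array. The median difference was -0.030 for macrophage and monocyte, 0.023 for B-lymphoid progenitor, 0.48 for dendritic cell, 0.15 for granulocyte, 0.20 for T cell and 0.31 for NK cell markers. It was -0.028 for erythroid, 0.25 for megakaryocyte, -0.37 for mature B and plasma cell, and 0.37 for stroma and endothelium markers. The brightest markers of the lists not yet named were Cd24a (13.85 allogeneic and 13.84 syngeneic), Ccr7 (9.61 allogeneic and 9.14 syngeneic), S100a8 (10.62 allogeneic and 10.30 syngeneic) and Cd2 (12.61 allogeneic and 12.46 syngeneic), for B-lymphoid progenitor, dendritic cell, granulocyte and T cell markers in that order. For erythroid, megakaryocyte, mature B and plasma cell, and stroma and endothelium markers they were Klf1 (6.20 allogeneic and 5.92 syngeneic), Pf4 (5.99 allogeneic and 5.74 syngeneic), Jchain (10.27 allogeneic and 11.10 syngeneic) and Pecam1 (9.16 allogeneic and 8.75 syngeneic). Gzma, a granzyme of killer cells, had means of 9.92 in allogeneic and 8.86 in syngeneic samples (difference 1.06, SE 0.26, adjusted p = 0.110 by limma). Of 8 measured NK cell markers, 5 had a positive difference, and 4 were not above the background limit on any array. Gzma, Prf1 and Klrd1 were the 3 above it on all 10. Prf1 (8.27 allogeneic and 8.47 syngeneic) and Klrd1 (8.17 allogeneic and 8.47 syngeneic) were lower in allogeneic samples. The part of these markers in the Lgals3bp and Lgals9 values was not tested.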

How the data were processed

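Each of the 10 samples was 1 array of GFP-sorted leukaemia, 5 allogeneic and 5 syngeneic. Per the labels' protocols, total RNA was extracted with Trizol and biotinylated cDNA was made with NuGEN kits. The deposited values are linear intensities, 1 for each probe set in each sample. Summarisation and scaling by the authors were not given in the sources used here. For testing, log2 intensities were quantile normalized, controls included. The 45037 probe sets that are not among 64 controls were fitted with limma 3.58.1 in R 4.3.3 (lmFit and eBayes). Calls used a Benjamini-Hochberg adjusted p under 0.05 over all of them. Platform annotation named 34945 probe sets with 1 symbol, 932 with several and 9160 with none, with symbols updated by gene identifier to RefSeq GRCm38.p6.

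The rule named the members, the 5 genes nearest to Lgals3bp and, in each list, up to 6 called genes by smallest p and the brightest, and allowed any other galectin or binding partner. Outside this rule, other list genes were named after their values were seen, for their function or their value. The members, lists and motifs were chosen with earlier results of these data known. The fit was tested on simulated data. Alternatives were other scalings, an added 16 before log2, filters on dim probe sets, 1 probe set per gene, other eBayes settings, array weights, a replicate block and arrays left out. The number of arrays limits the precision.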

Additional observations from a re-analysis of the deposited data

Results flagged for a closer look

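Within each group, the 7 member probe sets and the leading probe sets of the 5 nearest genes were searched for a sample far from the rest of its group, which made 24 groups of 5. Chance would flag about 1 in 20 such groups. Syngeneic animal 1 stood below its group for the Lgals8 probe set of lower mean signal, at 7.426 against 7.88 to 8.03, while the other Lgals8 probe set gave 9.58 there, within 9.56 to 9.78 of its group. For Rtp4 the sample apart was syngeneic animal 3, with 8.78 where the other 4 had 6.81 to 7.36. For Ifit1bl1 it was the same animal, with 8.354 where the other 4 had 7.35 to 7.56. Lgals3bp was also highest in that animal but was not far enough from the rest to be picked out. For Zbp1 it was allogeneic animal 3, with 10.92 where the other 4 allogeneic animals had 11.60 to 11.80.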

How the results depend on the processing

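The difference of Lgals3bp kept its direction under all 20 alternatives. Left-out single arrays gave 0.33 to 0.42 for Lgals9, 0.18 to 0.42 and -0.060 to 0.15 for the Lgals8 probe sets of lower and higher mean signal, and -0.59 to 0.0014 for Lgals3. They gave 0.00056 to 0.030 for the Lgals1 probe set of lower mean signal and 0.0062 to 0.026 for the other. Larger moves were -0.057 (no quantile normalization) and -0.091 (median centring) for the Lgals1 probe set of lower mean signal, -0.051 (median centring) for the other, and 0.65 for Lgals3 without allogeneic animals 1, 3 and 4. Lgals3 was also positive with array weights (0.15). The cause of these moves was not tested. With trend and robust eBayes 2 member probe sets passed, Lgals3bp and Lgals9, where 482 probe sets passed over the whole array, 292 of them higher. The members were chosen with this contrast known, so nothing is read from that count of members.

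Over all probe sets 185 passed, 122 higher and 63 lower. With 16 added there were 510 (266 and 244), with probe sets above background 367 (221 and 146), and without the lower 50% 631 (385 and 246). With 1 probe set per gene there were 106 (14 lower), with trend and robust eBayes 482 (292 and 190), and with array weights 1398 (553 and 845). Without allogeneic animals 1, 3 and 4 there were 2035 (676 and 1359). Left-out single arrays gave 70 to 2035 (58 to 634 and 12 to 1401), with 2035 without allogeneic animal 1 and 86 without allogeneic animal 4. Without syngeneic animals 1, 2, 3, 4 and 5 there were 73, 76, 85, 112 and 70.

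In the galectin-related lists Loxl3 was the 1 gene called with 16 added and with probe sets above background, and Itga4 the 1 called with array weights. The 3 called without allogeneic animals 1, 3 and 4 were Gabarapl2, Itga4 and Rb1cc1. Left-out single arrays gave 0 to 2 in these lists, 7 to 10 interferon response genes and 0 to 3 markers. Of the markers, Gzma was the 1 called without the lower 50% and with array weights. The 4 called without allogeneic animals 1, 3 and 4 were C1qc, Gp9, Gzma and Lyz2, and the 3 without allogeneic animal 1 were Cd209a, Gzma and Lyz2.

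The labels number the animals 1 to 5 in both groups. Deviations of same-numbered animals correlated at 0.33, 0.37, -0.0052, -0.24 and -0.17. The same number was the best partner for animals 1 and 2, but not for animals 3, 4 and 5. These few correlations cannot settle whether the number is a pairing, and the main fit did not take it as one. A replicate block gave 7 probe sets, 7 higher and 0 lower, and 1 interferon response gene, and left the difference of Lgals3bp at 3.26 (SE 0.15).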
